A study of Mus musculus with 27 samples.

Results

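Collagens are trimeric proteins of the extracellular matrix, and each chain is the product of its own gene. The 44 genes described here are all genes of the array whose symbol names a collagen chain (Col, a type number, a and a chain number), and they stand beside 19937 measured genes in all. They are every mouse collagen chain gene of the RefSeq table used for names, and they belong to 27 collagen types numbered between 1 and 28. Col6a5 and Col6a6 had 2 probe sets each, of which the one with the higher mean over all arrays was used, and the others had 1.

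RNA of 27 mouse samples was measured on Affymetrix arrays, 1 array per sample. The cells were 6 immortalized neural stem cell lines labelled p53 mutant (lines 3, 28, 31, 59, 95 and 116), 4 labelled p53 wild type (WT; lines 119, 120, 123 and 331), and 2 samples of normal neural stem cells (NSC), the precursors of neurons and glia. The tissues were 12 tumors, with 3 each grown from lines 1, 31, 59 and 123, and 3 samples of subcutaneous tissue (SubQ). Lines 31 and 59 carried the label p53 mutant as tumors, and lines 1 and 123 the label WT. All samples carried the label of a host strain, CB17/ICR-Prkdcscid/IcrCrl, whose severe combined immunodeficiency leaves the host without mature T and B cells but with its fibroblasts, vessels and macrophages. The labels give no age of the mice and do not say how the lines were immortalized. Each line was measured once in culture, and line 1 only as tumors. The labels call the arrays of a group biological replicates but do not say whether tumors of 1 line grew in different mice, so a p-value here reflects only how these samples vary, which may be technical.

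Fibrillar collagens such as types I, III and V form the load-bearing fibers of skin, tendon and scar, and are known mainly as products of fibroblasts. Type IV collagens form the network of basement membranes, type VI collagens a beaded microfibril around cells, and the FACIT collagens, such as types XII and XIV, sit on the surface of fibrils. The healthy brain has little fibrillar collagen outside its vessels and meninges. Chains are hydroxylated and glycosylated in the endoplasmic reticulum, trimmed outside the cell and cross-linked by lysyl oxidases.

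Values are log2 levels made by the authors with the RMA method, which corrects background and normalizes arrays to each other. Over all genes the median level was 7.18 to 7.28 in the 10 lines, 7.25 to 7.27 in NSC, 5.66 to 5.75 in the tumors and 5.82 to 5.87 in SubQ. The spread of genes within an array (SD) was 1.63 to 1.79 in the tumors, against 0.87 to 1.02 in SubQ, so the SubQ arrays had a narrow range of signal. By these medians the arrays of cells and those of tissues appeared to have been normalized apart, so tests were made only within each of the 2 sets. A probe set's level depends on its probes, so levels are compared between samples and not between genes.

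Promoter sequences show what lies before the genes that were higher in both the lines and the tumors (described below). There were 6 such genes, Col1a1, Col1a2, Col5a2, Col6a1, Col8a1 and Col12a1, and RefSeq promoter entries (build GRCm38.p6) were found for Col1a2, Col6a1 and Col8a1. The calls of some of the 6, these 3 among them, depended on the scaling or on the NSC samples, as given below. Each line below gives the 250 bases before the start of transcription, 5′ to 3′ on the gene's strand, with capitals for 4 motifs searched on both strands. The motifs were the CCAAT box (CCAAT), the GC box (GGGCGG), the TATA box (TATAAA) and the AP-1 site (TGAGTCA).
Col1a2, chr6:4505368-4505617, plus strand: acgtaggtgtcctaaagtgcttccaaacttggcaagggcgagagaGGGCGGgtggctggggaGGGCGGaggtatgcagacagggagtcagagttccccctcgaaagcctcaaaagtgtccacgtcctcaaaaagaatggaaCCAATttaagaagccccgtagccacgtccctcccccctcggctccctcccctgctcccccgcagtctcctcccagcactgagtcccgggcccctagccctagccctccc
Col6a1, chr10:76726045-76726294, minus strand: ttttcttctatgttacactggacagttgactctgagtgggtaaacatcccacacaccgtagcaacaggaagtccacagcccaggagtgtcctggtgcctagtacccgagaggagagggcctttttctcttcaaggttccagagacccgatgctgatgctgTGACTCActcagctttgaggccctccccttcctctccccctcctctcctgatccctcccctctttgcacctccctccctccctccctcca
Col8a1, chr16:57754738-57754987, minus strand: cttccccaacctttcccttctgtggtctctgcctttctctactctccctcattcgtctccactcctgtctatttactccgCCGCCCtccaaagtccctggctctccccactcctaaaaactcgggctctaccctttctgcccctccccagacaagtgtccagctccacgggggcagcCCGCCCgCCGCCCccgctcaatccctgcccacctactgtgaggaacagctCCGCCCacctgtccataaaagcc
The Col1a2 stretch holds 1 CCAAT box and 2 GC boxes, the Col6a1 stretch 1 AP-1 site, and the Col8a1 stretch 4 GC boxes, none overlapping another. Among all 32851 stretches of this length in the table, 33.8% held a CCAAT box, 32.7% a GC box, 12.4% a TATA box and 4.46% an AP-1 site. Of the 38 stretches that belong to 35 of the 44 collagen genes, 13 held a CCAAT box, 22 a GC box, 5 a TATA box and 1 an AP-1 site. A match describes the letters and not a bound site.

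Col4a1 and Col4a2, the chains of the main basement membrane trimer, are shown because they start next to each other in opposite directions and, as given below, varied together across the lines. Their RefSeq start sites overlap by 22 bases on chromosome 8, and the stretch around them is shown on the plus strand with the shared bases in capitals.
Col4a2 and Col4a1 starts, chr8:11312801-11312830: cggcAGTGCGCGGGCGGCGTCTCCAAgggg
Col4a2 is transcribed to the right from base 11312805 and Col4a1 to the left from base 11312826.

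The first comparison set the 10 immortalized lines against the 2 NSC samples. Both chains of type I (Col1a1 and Col1a2), 2 of the 3 chains of type V (Col5a1 and Col5a2) and the single chains Col6a1, Col8a1 and Col12a1 were higher in the lines, and no collagen gene was called lower. With limma, a moderated linear model, and Benjamini-Hochberg adjustment over all genes, 7 of 44 collagen genes were called higher at an adjusted p under 0.05, which is 15.9%, against 6.79% of all genes. None was called lower, against 8.22% of all genes. At an unadjusted p under 0.05 there were 14 higher and 0 lower, against 12.3% and 14% of all genes. In 12 collagen genes every line lay above both NSC samples, against 10.1% of all genes, and in none below, against 11.1%. Markers of neural stem cells moved with this comparison: 4 of 6 were called lower in the lines, with a median difference of -1.95 over the list. Their summed log2 level was 41.9 to 47.4 in the lines, against 61.2 to 61.4 in NSC, and the part of these markers in the collagen levels was not tested.

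Among the fibrillar chains, 4 of 11 were called higher and none lower. Col1a2, the second chain of type I collagen, had its lowest, median and highest level at 7.35, 10.54 and 11.18 in the lines, against 6.80 and 7.17 in NSC. Line 95 was the low one, just above NSC, and every other line was at 9.39 or more. The log2 difference was 3.14 ± 0.74 (SE; n = 10 lines and 2 NSC; limma adjusted p = 0.011). Col1a1, the major chain of type I, had 8.66, 9.74 and 10.23 in the lines, against 7.79 and 7.91 in NSC. Lines 59, 31 and 95 formed its lower end, between 8.66 and 8.75, and the difference was 1.73 ± 0.42 (adjusted p = 0.013). With the 6 p53 mutant lines alone, neither type I chain passed the threshold (adjusted p = 0.062 for Col1a1 and 0.053 for Col1a2).

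The type V chains, which co-assemble with type I and set the fiber's diameter, were called as well. Col5a2 had 7.63, 8.82 and 9.46 in the lines, against 6.80 and 6.74 in NSC. All 10 lines lay above NSC, line 95 nearest to it, and the difference was 1.98 ± 0.37 (adjusted p = 0.0022). Col5a1 had 8.09, 8.34 and 8.73 in the lines, against 7.67 and 7.69 in NSC. Its difference was the smallest of those called, 0.68 ± 0.14 (adjusted p = 0.0048).

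Col3a1, the chain of the thin type III fibers, had 7.72, 8.34 and 10.29 in the lines, against 7.12 and 7.48 in NSC. All lines were above NSC, but the lines spread over 2.57 log2 units and the difference of 1.34 ± 0.57 did not pass (adjusted p = 0.15; 95% interval 0.10 to 2.57). Lines 119 (10.29) and 331 (9.90) were the 2 highest in Col3a1. Their fibroblast markers were also the highest of the lines: the summed log2 level of 8 markers was 66.2 in line 119 and 63.5 in line 331, against 48.0 to 56.8 in the other 8 lines and 50.7 to 51.3 in NSC. The small proteoglycan gene Dcn was at 11.67 and 10.58 in these 2 lines, while Lum, another fibroblast proteoglycan gene, was under the 25th percentile of gene means in the lines as a group. Line 95, the lowest in Col3a1 at 7.72, had a marker sum of 56.3, with Dcn at 9.01. Its Pdgfra, another of the 8 markers, was at 11.41, against 11.65 and 11.37 in lines 119 and 331. None of the 8 markers was called between the lines and NSC. The part of these markers in the Col3a1 levels was not tested.

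Outside the fibrils, Col12a1 and Col8a1 had the 2 largest differences of the 44 genes. Col12a1, a FACIT chain that coats type I fibrils, had 10.15, 11.18 and 11.98 in the lines, against 7.52 and 7.17 in NSC. The groups lay far apart, with a difference of 3.76 ± 0.41 (adjusted p = 2.4e-05). Col8a1, a short chain of the hexagonal networks in vessel walls and the cornea, had 8.62, 9.87 and 10.25 in the lines, against 5.80 and 6.93 in NSC. The low line was 331, and the difference was 3.38 ± 0.34 (adjusted p = 1.4e-05). Its partner chain Col8a2 was level within its error, with a difference of -0.03 ± 0.09 (95% interval -0.23 to 0.16). None of the other 8 FACIT chains was called.

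The type VI chains were split. Col6a1, whose product is needed for every type VI trimer, had 8.46, 9.03 and 9.99 in the lines, against 7.52 and 7.56 in NSC, and was called (1.61 ± 0.32, adjusted p = 0.0040). Col6a2, its neighbor on chromosome 10 and partner in the trimer, had 7.47, 8.17 and 9.22 in the lines, against 6.99 and 7.76 in NSC. The groups overlapped, and the difference of 0.89 ± 0.35 was not called (adjusted p = 0.11). Col6a3, a longer chain of the same trimer, had 7.35, 7.87 and 9.83 in the lines, against 7.02 and 7.19 in NSC, and was not called (1.13 ± 0.60, adjusted p = 0.27). Lines 28 (9.83) and 331 (9.70) were far above the rest, which reached 8.68.

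**Figure D1:**
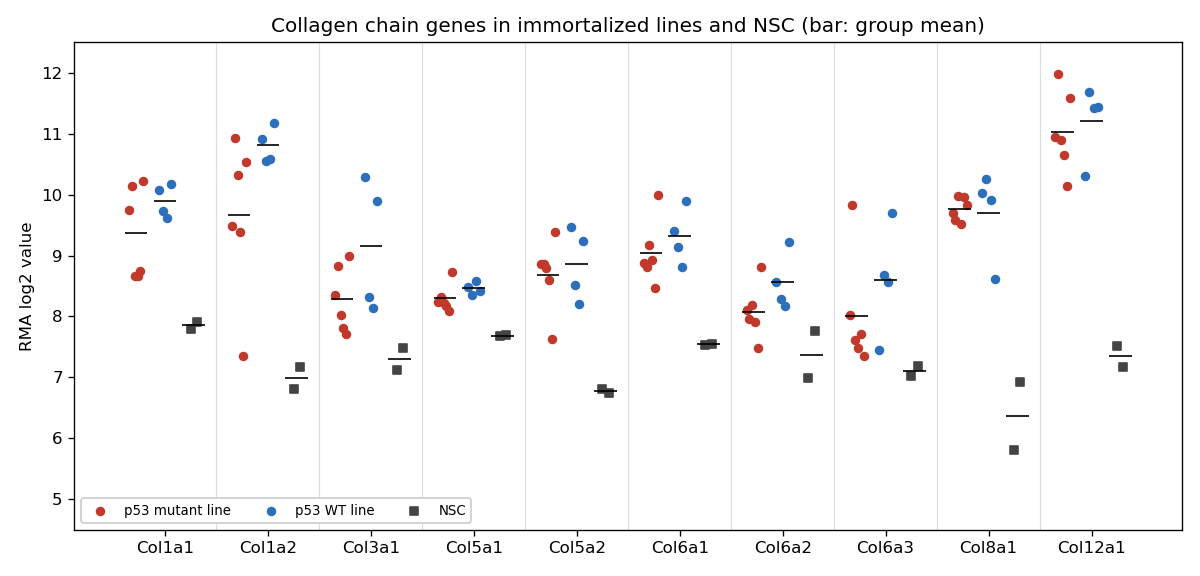
RMA log2 level (y axis) of 10 collagen chain genes (x axis) in the 6 p53 mutant lines, the 4 p53 WT lines and the 2 NSC samples, 1 point per sample, with a bar at each group's mean. All lines lie above NSC in 9 of the 10 genes, Col6a2 being the one that overlaps, and the lines spread most in Col1a2, with line 95 at 7.35.

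The 6 basement membrane chains had no called member, and their median difference was 0.48. Col4a5 and Col4a6, paired chains of epithelial and muscle basement membranes, lay above NSC in all 10 lines by 0.56 ± 0.19 and 0.61 ± 0.22 without passing (adjusted p = 0.062 and 0.085). The 4 transmembrane chains, the 2 multiplexins and Col7a1, the anchoring fibril chain of skin, were not called either. The 37 uncalled genes ranged in difference between -0.13 and 1.34, with a median of 0.07. The median over all 44 genes was 0.09, against -0.01 over all genes. With either NSC sample left out, 3 genes remained called: Col5a2, Col8a1 and Col12a1. The other 4 kept their direction, with an adjusted p between 0.057 and 0.14.

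Machinery of collagen assembly was measured beside the chains, with a list of 38 genes for hydroxylases, chaperones, processing enzymes, cross-linkers and receptors, of which 35 were measured. In the lines 15 of 35 were called higher than in NSC and 2 lower, against 6.79% and 8.22% of all genes, with a median difference of 0.73. Lox, the lysyl oxidase that starts cross-linking, averaged 10.9 ± 1.5 in the lines and 6.14 ± 0.34 in NSC (SD), a difference of 4.72 ± 0.99 (SE; adjusted p = 0.0053). P4ha3, a catalytic chain of prolyl 4-hydroxylase, rose by 4.02 ± 0.40, Pcolce, the enhancer of the procollagen C-proteinase, by 3.89 ± 0.31, and Loxl4 by 2.69 ± 0.62. Lox, P4ha3 and Loxl4 were under the 25th percentile of gene means in NSC. The 2 lower genes, named after their values were seen, were Colgalt2, a collagen galactosyltransferase (-2.31 ± 0.12), and Adamts3, a procollagen N-proteinase (-1.99 ± 0.19). Colgalt2 was under the 25th percentile of gene means in the lines.

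**Figure D2:**
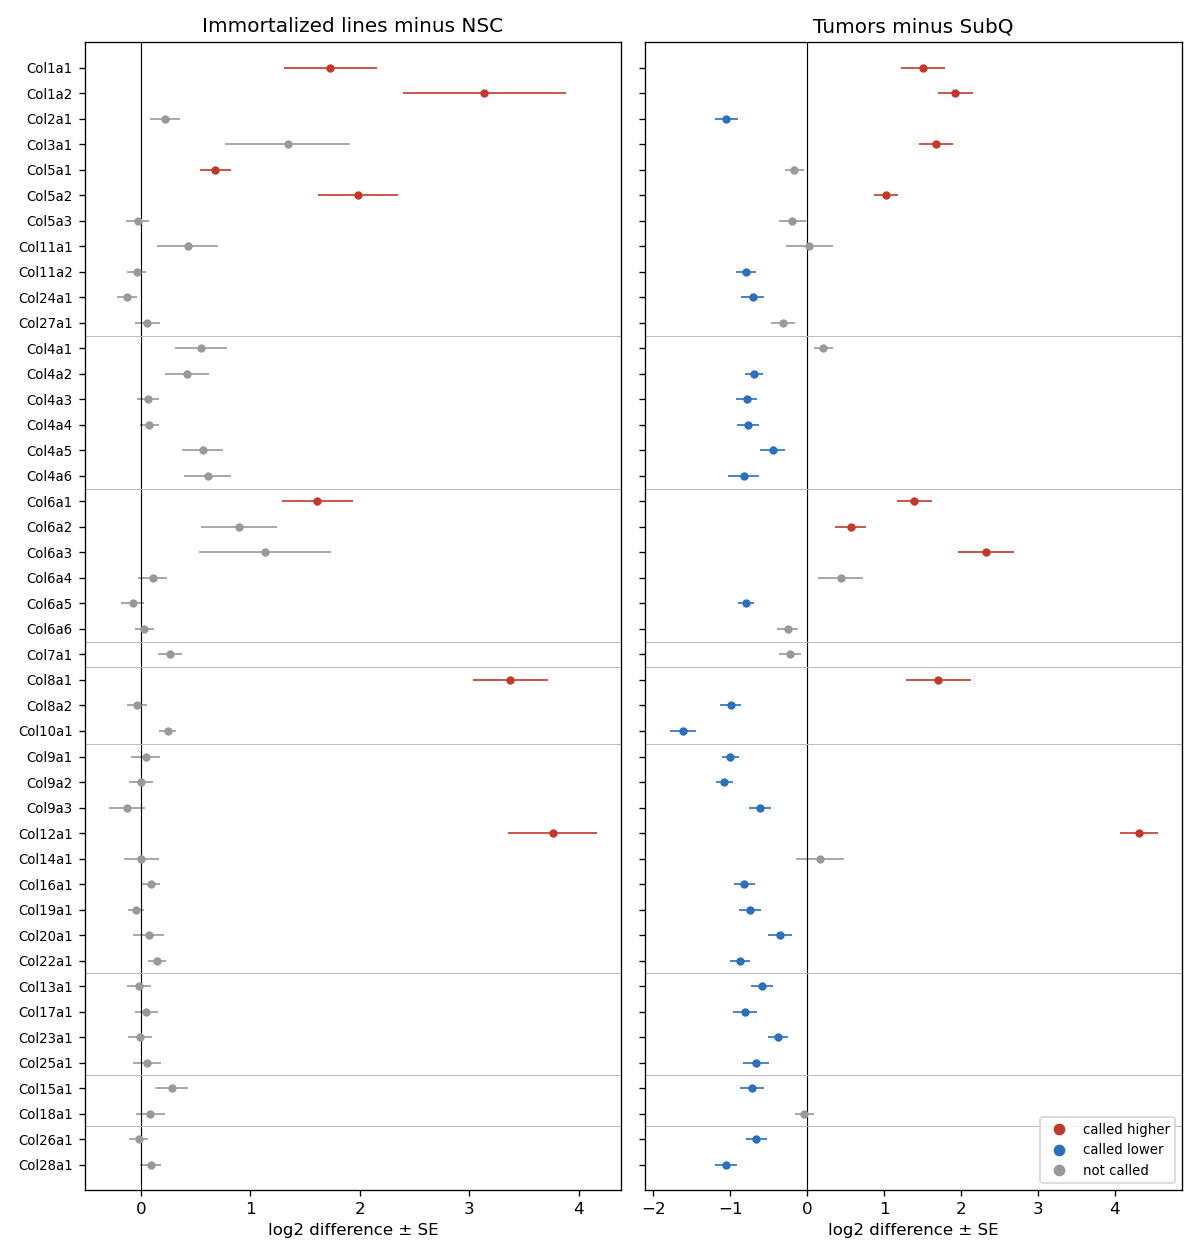
Log2 difference ± SE (x axes) of the 44 collagen chain genes, grouped by class between thin lines (from top: fibrillar, basement membrane network, beaded filament, anchoring fibril, hexagonal network, FACIT, transmembrane, multiplexin, other), for the immortalized lines minus NSC (left) and the tumors minus SubQ (right), with limma calls in color. Calls on the left are all higher, 7 genes, while the right panel has 9 higher and 25 lower.

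The lines also differed among themselves. Their spread (SD over the 10 lines) was 1.14 in Col1a2, which is at the 99.0th percentile of all genes, 0.92 in Col6a3 and 0.87 in Col3a1. Line 95 was the lowest of the 10 in 8 collagen genes: Col1a2, Col3a1, Col5a1, Col5a2, Col6a1, Col6a2, Col11a1 and Col12a1. Over all genes line 95 was the lowest in 7.70%. Line 331 was the lowest in 28 of the 44, among them the basement membrane chains Col4a1, Col4a2, Col4a3 and Col4a4, while it was the highest in Col1a2 and Col6a2. Over all genes line 331 was the lowest in 22.7%, and after quantile normalization of the 10 lines it was still the lowest in 23 collagen genes.

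By p53 genotype, none of the 44 genes was called between the 6 mutant and the 4 WT lines, and none had an unadjusted p under 0.05 with limma. Over all genes, 0.0201% were called. In every collagen gene the groups overlapped. The largest difference was that of Col1a2, whose mutant lines averaged 9.67 ± 1.29 and WT lines 10.81 ± 0.30 (SD). That is -1.14 ± 0.58 (SE; adjusted p = 0.64) with a 95% interval of -2.41 to 0.13, so a change of this size was not excluded by its interval. Col3a1 averaged 8.29 ± 0.53 in mutant lines and 9.16 ± 1.09 in WT lines (difference -0.87, interval -1.85 to 0.10). Differences in the 44 genes lay between -1.14 and 0.26.

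Partner chains, most of which share a trimer, could be compared across the 10 lines, each a separate sample. Type III trimers hold only Col3a1, so its pairs with Col1a1 and Col5a2 join chains of different trimers. Of 14 partner pairs, 7 had a correlation called by a permutation test with 100000 resamples, 2-sided and adjusted over the 14. Col6a1 and Col6a2 correlated with Pearson r = 0.945 (Spearman rho = 0.891; permutation p = 7.0e-05 for r and 0.0012 for rho; adjusted p = 0.00049 and 0.0058). Without the 2 lines furthest from the median of Col6a1, r was 0.918, and leaving out any 1 line gave 0.929 to 0.967. Col6a2 was the 3rd closest of 19936 genes to Col6a1 by this measure. Lines 116, 331 and 119 were high in both chains and line 95 low in both. In the other called pairs the partner ranked 21st (Col9a2 with Col9a3), 25th (Col4a1 with Col4a2), 262nd (Col1a1 with Col3a1) and 314th (Col3a1 with Col5a2). The rank was 638th for Col1a1 with Col1a2 and 706th for Col4a3 with Col4a4. How many other gene pairs would be called was not counted.

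Col4a1 and Col4a2, whose shared start is shown above, correlated with r = 0.876 (rho = 0.952; permutation p = 3.0e-05 and 0.00013; adjusted p = 0.00042 and 0.0018). Without the 2 furthest lines r was 0.843. Line 116 was highest in both, at 8.77 and 8.41, and line 331 lowest in both, at 7.34 and 7.47. No correlation was called between Col6a3 and its partners: r was 0.019 with Col6a1 (rho = -0.418; permutation p = 0.96 and 0.23; adjusted p = 0.96 and 0.33) and 0.229 with Col6a2 (adjusted p = 0.67). Line 116 was the highest line in Col6a1 and the lowest in Col6a3. With the 6 mutant lines alone, only the Col6a1 and Col6a2 pair, the Col4a1 and Col4a2 pair and the Col1a1 and Col3a1 pair passed, by an exact permutation test.

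Among fibrillar partners, Col1a1 and Col3a1 had r = 0.768 (rho = 0.879; permutation p = 0.013 and 0.0016; adjusted p = 0.031 and 0.0058; 0.738 without the 2 furthest lines). Col3a1 and Col5a2 had r = 0.795 (rho = 0.879; permutation p = 0.0053 and 0.0017; adjusted p = 0.018 and 0.0058; 0.769 without the 2). Col1a1 and Col1a2, the chains of the type I trimer, had r = 0.682 (rho = 0.661; permutation p = 0.013 and 0.043; adjusted p = 0.031 and 0.12), and 0.911 without the 2 furthest lines. Leaving out single lines ended the type I call in 5 of 10 cases and the Col1a1 and Col3a1 call in 3 of 10. Col4a3 with Col4a4 (r = 0.743) and Col9a2 with Col9a3 (r = 0.908) passed on r and not on rho (adjusted p = 0.19 and 0.16), and without the 2 furthest lines they fell to r = 0.248 and 0.666.

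**Figure D3:**
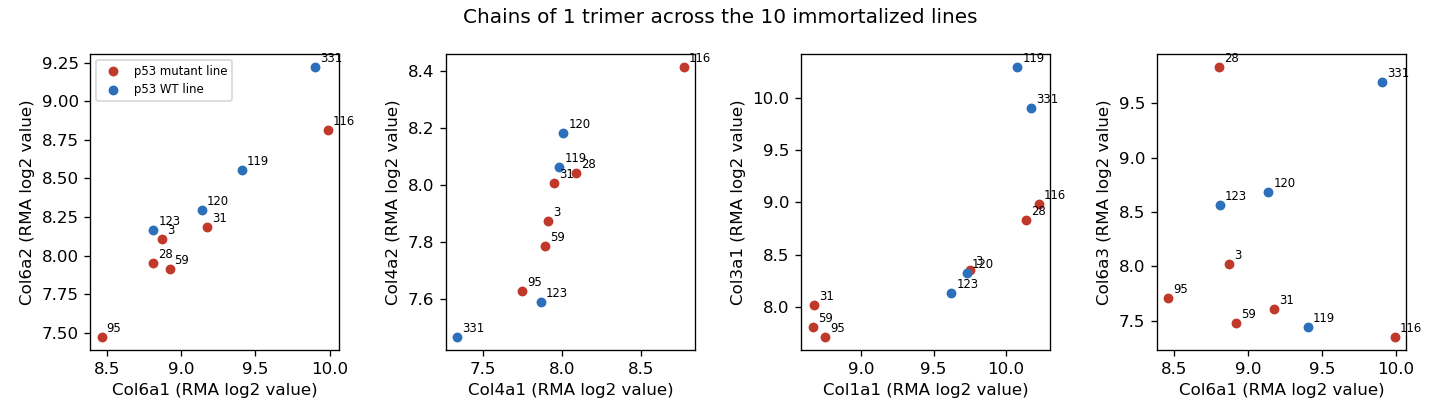
RMA log2 levels of 2 partner chains against each other, 1 point per immortalized line, numbered, with p53 mutant and WT lines in different colors. Col1a1 and Col3a1 belong to different trimers, so the figure's title does not hold for that panel. Col6a1 with Col6a2, Col4a1 with Col4a2 and Col1a1 with Col3a1 rise together (r = 0.945, 0.876 and 0.768), while Col6a1 with Col6a3 does not (r = 0.019).

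The 12 tumors were next compared with the 3 SubQ samples. Col1a1, Col1a2, Col3a1, Col5a2, Col6a1, Col6a2, Col6a3, Col8a1 and Col12a1 were higher in the tumors, and 25 other genes were lower, among them all 4 transmembrane chains and 7 of 9 FACIT chains. By limma 9 of 44 genes were called higher, which is 20.5%, against 30.7% of all genes, and 25 were called lower, which is 56.8%, against 45.8% of all genes. The median difference was -0.52 over the collagen genes and -0.28 over all genes, and relative to that median gene the collagen differences were 0.28 higher than printed here. In 8 genes all 12 tumors lay above the 3 SubQ samples, against 21.9% of all genes, and in 21 all lay below, against 30.6%. The tumors come from 4 lines and were counted as 12 samples; averaged per line, 9 collagen genes were called higher and 22 lower. In bulk tissue, fewer cells of a type and less RNA per cell cannot be told apart.

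Col12a1 had the largest difference. Its lowest, median and highest level was 9.32, 10.28 and 10.63 in the tumors, against 5.70, 6.0 and 5.96 in SubQ. Line 59 tumors formed the lower end, far above SubQ, and the difference was 4.32 ± 0.25 (SE; n = 12 tumors and 3 SubQ; limma adjusted p = 3.5e-10). Col6a3 had 7.31, 8.77 and 9.93 in the tumors, against 6.53, 6.25 and 6.37 in SubQ (2.33 ± 0.37, adjusted p = 2.2e-05). The lowest tumor was of line 31 and the highest of line 1.

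The type I and III chains were called in the tumors with smaller differences. Col1a2 had 8.69, 9.24 and 10.28 in the tumors, against 7.08, 7.38 and 7.40 in SubQ (1.93 ± 0.23, adjusted p = 8.7e-07). Col1a1 had 7.41, 8.24 and 9.11 in the tumors, against 6.48, 6.48 and 7.25 in SubQ (1.51 ± 0.29, adjusted p = 0.00014). Both groups stayed apart in both genes. Col3a1 had 7.60, 8.07 and 8.67 in the tumors, against 6.09, 6.27 and 6.86 in SubQ (1.68 ± 0.22, adjusted p = 2.6e-06). It was called here, while it did not pass between lines and NSC.

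Col8a1 had 7.26, 8.58 and 9.90 in the tumors, against 7.25, 6.35 and 6.72 in SubQ (1.71 ± 0.42, adjusted p = 0.0013), so the groups all but touched. Col6a1 had 7.18, 7.77 and 8.41 in the tumors, against 5.98, 6.46 and 6.58 in SubQ (1.40 ± 0.23, adjusted p = 3.5e-05). Col5a2 had 6.55, 7.07 and 7.41 in the tumors, against 5.95, 6.29 and 5.89 in SubQ (1.03 ± 0.16, adjusted p = 1.4e-05). Col6a2 overlapped between the groups, with 7.01, 7.42 and 8.04 in the tumors, against 7.18, 6.71 and 6.76 in SubQ, and was called by the narrowest margin of the 9 (0.57 ± 0.20, adjusted p = 0.016).

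Some of these calls depended on the scaling. After quantile normalization of the tissue arrays, Col1a1, Col1a2 and Col8a1 were not called (0.54, 0.39 and 0.59, with adjusted p = 0.12, 0.18 and 0.28), and Col6a2 was called in the other direction, at -0.58. Col12a1, Col6a3, Col3a1, Col6a1 and Col5a2 were called higher under it too, with Col6a4 added. Of the lower calls, those of Col19a1 and Col20a1 were lost under it (adjusted p = 0.20 and 0.21). Lower calls were added for Col5a1 (-1.14, adjusted p = 8.0e-06), Col5a3, Col6a6, Col7a1, Col18a1 and Col27a1. Col6a2 was also not called without SubQ sample 2 or 3 (adjusted p = 0.078 and 0.066). By percentile among all genes of its array, Col1a2 lay at 93.5, 96.0 and 93.8 in SubQ. Its means in tumors of lines 31, 59 and 123 were 95.9, 95.5 and 97.5. Col6a2 lay at 94.7, 87.2 and 84.9 in SubQ, against 83.6, 77.5 and 83.4 in these tumors. Col12a1 went from 41.8, 59.2 and 55.7 in SubQ to 99.2, 97.8 and 99.0.

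**Figure D4:**
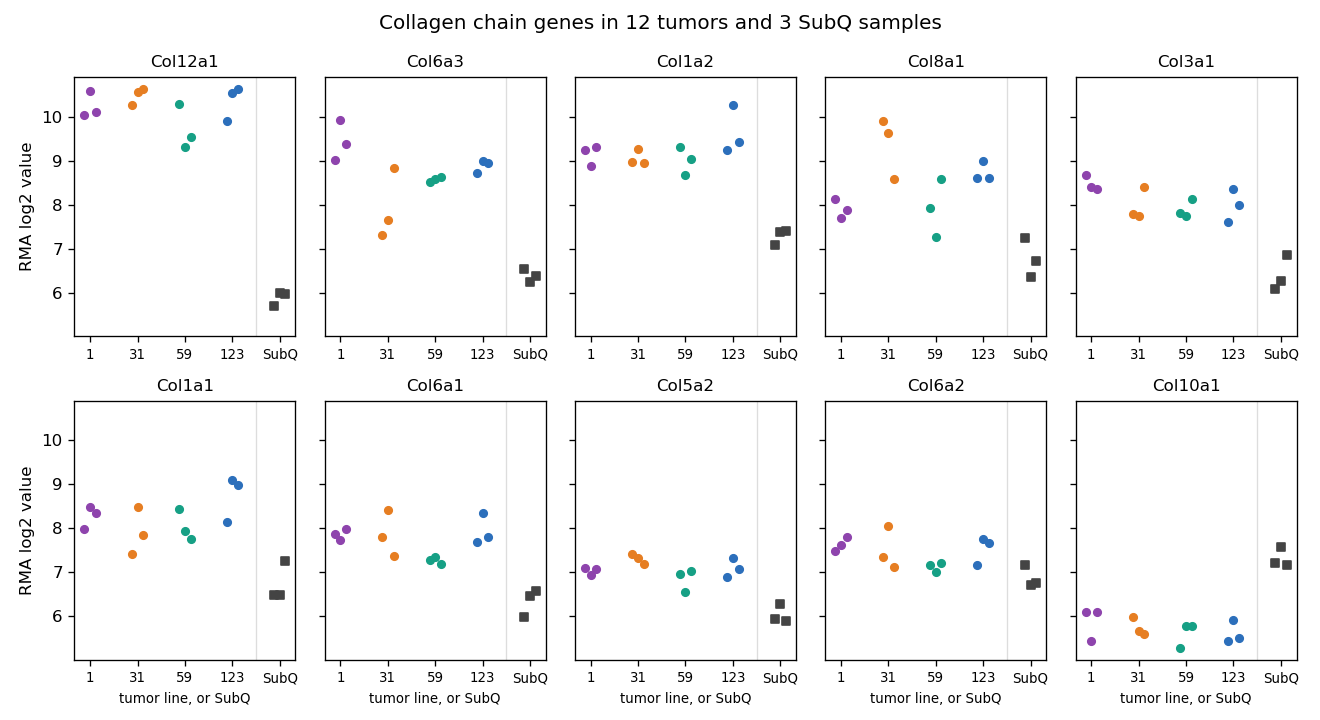
RMA log2 level (y axes, 1 scale) of 10 collagen chain genes in the tumors of lines 1, 31, 59 and 123 and in SubQ, 1 point per sample. All 12 tumors lie above SubQ in 8 panels, the groups overlap in Col6a2, and Col10a1 lies below SubQ in every tumor.

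The lower calls were 5 of 6 basement membrane chains, 7 of 9 FACIT chains, all 4 transmembrane chains, 3 of 11 fibrillar chains and 6 others. Col10a1, the chain of hypertrophic cartilage, had 5.28, 5.72 and 6.09 in the tumors, against 7.22, 7.58 and 7.17 in SubQ (-1.61 ± 0.17, adjusted p = 3.1e-07). Col9a2, a chain of the cartilage FACIT type IX, had 6.21, 6.46 and 6.56 in the tumors, against 7.43, 7.55 and 7.52 in SubQ (-1.08 ± 0.11, adjusted p = 1.7e-07). Col2a1, the cartilage fibril chain, had 5.83, 6.16 and 6.44 in the tumors, against 7.05, 7.60 and 6.93 in SubQ (-1.05 ± 0.15, adjusted p = 6.3e-06). These and Col28a1 (-1.06) were the only collagen genes called lower with an added 2-fold threshold. In the SubQ arrays, whose range of signal was narrow, Col10a1 lay at percentiles 95.1, 97.1 and 91.7 of all genes. Its mean percentile in tumors of lines 31, 59 and 123 was 51.4, 47.6 and 47.8. The part of the narrow SubQ range in the lower or the higher calls was not tested. Of 4 cartilage markers, 2 were called lower in the tumors, near the share of all genes called lower, 45.8%. Matn1 was under the 25th percentile of gene means in both groups.

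Col4a1 and Col4a2, which varied together in the lines, differed here. Col4a2 averaged 6.44 ± 0.11 in the tumors and 7.13 ± 0.17 in SubQ (SD), a fall of 0.69 ± 0.11 on the log2 scale (SE; adjusted p = 3.0e-05). Col4a1 averaged 6.38 ± 0.14 in the tumors and 6.17 ± 0.19 in SubQ and was not called (0.21 ± 0.12, adjusted p = 0.12; 95% interval -0.04 to 0.47). Col4a1 was called higher with arrays centred on their medians (0.35, limma adjusted p = 0.017) and without SubQ sample 2 (0.32, adjusted p = 0.033). The difference between the 2 genes was not tested. The 10 uncalled genes ranged between -0.31 and 0.44. Of the lower calls, those of Col4a5, Col20a1 and Col23a1 were lost without 1 of the SubQ samples (adjusted p = 0.11, 0.27 and 0.14 at most) and with tumors averaged per line (adjusted p = 0.062, 0.12 and 0.10). With line as a random block only the call of Col20a1 was lost (adjusted p = 0.093), which leaving out most single tumors ended too. With arrays centred on their medians the calls of Col4a5, Col20a1 and Col23a1 were lost (adjusted p = 0.097, 0.21 and 0.11). With the mean of their 2 probe sets, Col6a5 was not called lower (-0.40, adjusted p = 0.087), while Col6a6 was (-0.65, adjusted p = 0.00022).

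Markers of some other cell types moved with this comparison. All 5 adipocyte and all 5 skeletal muscle markers were called lower in the tumors, and 6 of 7 macrophage markers higher. Of all genes, 45.8% were called lower and 30.7% higher, and the counts of each list stand against these shares. The summed log2 level of the macrophage list was 56.3 to 63.6 in the tumors and 42.2 to 46.3 in SubQ, and that of the endothelial list 42.5 to 53.8 in the tumors and 39.5 to 40.3 in SubQ (3 of 7 higher). The fibroblast list, with 3 of 8 higher and 2 lower, lay at 55.6 to 67.4 in the tumors and 56.0 to 58.9 in SubQ, and none of its members was under the 25th percentile in either group. The part of these cell types in the collagen levels was not tested.

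In the assembly list 26 of 35 genes were called higher in the tumors and 3 lower, against 30.7% and 45.8% of all genes, with a median difference of 1.39. P4hb, the shared chain of prolyl 4-hydroxylase, rose by 5.06 ± 0.28 (SE), Itgb1, the common chain of collagen-binding integrins, by 4.15 ± 0.20, Plod2, a lysyl hydroxylase, by 4.10 ± 0.17, and Sparc, a collagen-binding matricellular protein, by 3.79 ± 0.23. P4hb and Plod2 were under the 25th percentile of gene means in SubQ. The 3 lower genes, named after their values were seen, were Colgalt2 (-1.44), Adamts3 (-1.33) and Itga10, a collagen receptor of cartilage cells (-0.48). Colgalt2 was under the 25th percentile of gene means in the tumors.

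The comparison of lines with NSC and that of tumors with SubQ share no samples. Both called Col1a1, Col1a2, Col5a2, Col6a1, Col8a1 and Col12a1 higher, which is 6 of the 7 genes of the one and 6 of the 9 of the other. Over all genes, 963 (4.83%) were called higher in both, of 1354 in the lines and 6121 in the tumors. After quantile normalization of the tissue arrays, Col1a1, Col1a2 and Col8a1 were not called in the tumors. The line calls of Col1a1, Col1a2 and Col6a1 depended on having both NSC samples, as given above. Col5a1 was called higher only in the lines (tumors minus SubQ -0.16 ± 0.12, called lower after quantile normalization). Col3a1, Col6a2 and Col6a3 were called higher only in the tumors. These contrasts were not tested against each other.

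Tumors of the 4 lines were then compared among themselves. By the moderated F test of limma, 2 of 44 collagen genes were called, against 5.07% of all genes, and both were highest in line 59. Col6a4, a type VI chain whose human counterpart is a broken gene, had 6.77, 6.68 and 6.66 in line 59 tumors, against 5.35 to 5.94 in the other 9. The line 59 tumors stood apart from all others, by 1.09 ± 0.13 over the mean of the other 3 lines (SE; n = 3 tumors a line; adjusted p = 0.0014). Col4a6 had 5.99, 5.89 and 6.15 in line 59 tumors, against 5.14 to 5.62 in the others (0.70 ± 0.11, adjusted p = 0.0093). These were 2 collagen genes called higher in line 59, against 0.752% of all genes. In culture line 59 had the highest Col6a4 of the 10 lines, at 6.80, but the other lines lay between 6.15 and 6.72. Its Col4a6 was 7.46 in culture, against 6.98 in line 31 and 7.02 in line 123, while lines 95 (7.86) and 119 (7.72) were higher.

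Line 1 tumors had 1 collagen gene called higher, against 2.33% of all genes. It was Col5a3, a less common type V chain, with 6.34, 6.83 and 6.63 in line 1 tumors, against 5.90 to 6.25 in the others (0.48 ± 0.12, adjusted p = 0.047). The F test over the lines did not call it (adjusted p = 0.14). Col8a1 averaged 9.37 ± 0.70 in line 31 tumors, 8.73 ± 0.22 in line 123, 7.92 ± 0.66 in line 59 and 7.90 ± 0.21 in line 1 (SD), which was not called (adjusted p = 0.053). Col6a3 averaged 9.44 ± 0.46 in line 1 tumors and 7.93 ± 0.79 in line 31 tumors and was not called either (adjusted p = 0.063). Tumor 3 of line 31 differed from the other 2, with Col6a3 at 8.82 against 7.31 and 7.66, and Col8a1 at 8.58 against 9.90 and 9.63. Without it, 5 collagen genes were called, with Col6a3, Col8a1 and Col11a1 added, and without tumor 3 of line 59 Col4a6 was not called (adjusted p = 0.055).

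Which collagen RNA in the tumors was made by the line's own cells and which by the host was asked by setting the 9 tumors of lines 31, 59 and 123 against their own line in culture. Tumor cells and host were both mouse, so the probes do not tell their RNA apart, and each line had 1 culture array. The values were therefore described without a test, after joint quantile normalization of the 12 arrays. All 9 tumors lay above their own line in 11 collagen genes, which is 25%, against 15.7% of all genes. All lay below in 8, which is 18.2%, against 23.9% of all genes. The median over genes was 0.11 for the collagens and -0.08 for all genes.

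Col6a3 had the largest difference between tumor and culture. On the jointly normalized scale it was at 7.79, 8.13 and 9.20 in line 31 tumors against 6.47 in the culture, at 8.82, 9.0 and 9.12 in line 59 tumors against 6.36, and at 9.09, 9.50 and 9.35 in line 123 tumors against 7.28. The 9 differences lay between 1.32 and 2.75. Col3a1 was at 8.23, 8.23 and 8.78 in line 31 tumors against 6.82 in the culture, at 8.12, 8.15 and 8.63 in line 59 tumors against 6.70, and at 7.98, 8.88 and 8.37 in line 123 tumors against 6.87. Its differences of 1.12 to 2.01 were much alike in the 3 lines, with means of 1.59, 1.60 and 1.55. Col14a1, a FACIT chain of skin and tendon, had differences of 0.62 to 1.99 and line means of 1.33, 1.37 and 1.27.

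The type I chains and Col12a1 were above culture by less. Col1a1 had line means of 0.97, 0.93 and 0.87 in lines 31, 59 and 123, and Col1a2 of 0.49, 1.23 and 0.76. Col12a1 had 1.26, 0.68 and 0.48, with the nearest tumor 0.01 above its line. Col6a2 (0.56 to 1.56), Col6a4 (0.25 to 1.43), Col4a2, Col27a1 and Col28a1 completed the 11. Col6a4 was 1.39 above culture in line 59 tumors, against 0.48 in line 31 and 0.53 in line 123. The 8 genes below culture were Col4a5, Col6a5, Col9a3, Col19a1, Col20a1, Col22a1, Col23a1 and Col26a1, the largest being Col20a1 with a median of -0.58.

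Several marker lists lay above culture in the same 9 tumors. All 7 macrophage markers, 6 of 7 endothelial markers, 5 of 8 fibroblast markers (Dcn, Lum, Dpt, Mfap5 and Pdgfra) and 3 of 6 mural markers were above in all 9, with median differences of 3.46, 1.59, 2.40 and 0.48. So were 2 of 5 skeletal muscle, 2 of 5 adipocyte, 1 of 4 keratinocyte and 1 of 4 cartilage markers. Their median differences were 1.10, 0.09, 1.95 and 0.11. Of the 6 neural stem cell markers, 0 were above in all 9. The part of these cell types in the collagen differences was not tested. Of the 35 assembly genes, 3 were above in all 9 tumors (Bmp1, Sparc and Itga1) and 6 below, against 15.7% and 23.9% of all genes, with a median of 0.13.

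**Figure D5:**
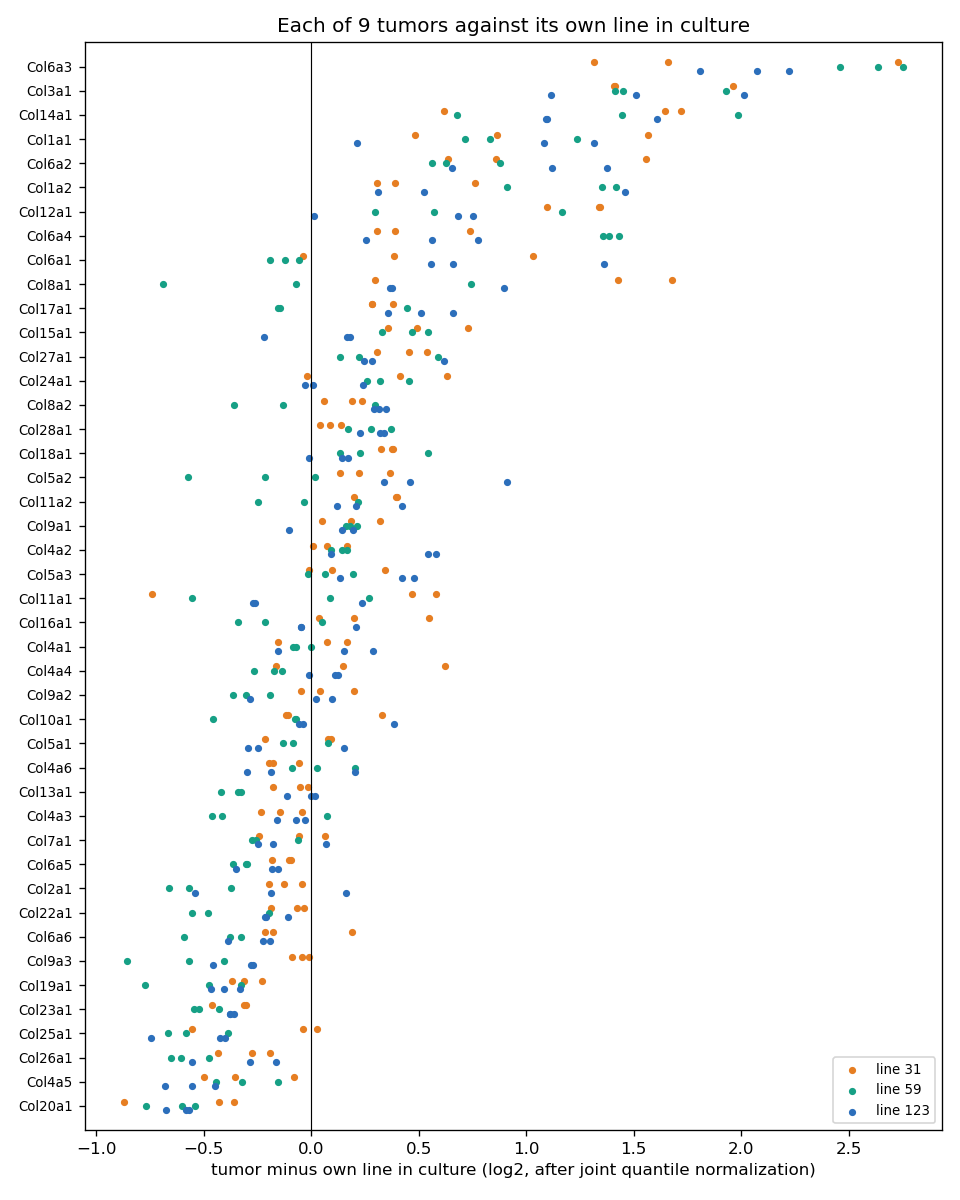
Log2 difference (x axis) of each of 9 tumors from its own line in culture after joint quantile normalization, for the 44 collagen chain genes (y axis) ordered by median, 3 points per line in lines 31, 59 and 123. Col6a3, Col3a1 and Col14a1 stand at the top, and 11 genes have all 9 points above 0.

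A second description placed each gene among all genes of its own array. A gene was called high in both where it reached the 75th percentile in the 3 cultures and in the mean of each line's tumors, and 5 collagen genes did, against 17.5% of all genes. These were Col1a1, Col1a2, Col6a1, Col8a1 and Col12a1. Col12a1 was at the 99.2nd, 97.8th and 99.0th percentile in tumors of lines 31, 59 and 123, against the 96.4th, 95.7th and 98.3rd in their cultures. Col1a2 was at the 95.9th, 95.5th and 97.5th in the tumors, against the 93.3rd, 86.4th and 94.9th in the cultures. A gene was called low in culture and high in tumors where it was under the 50th percentile in the cultures and reached the 75th in the tumors. No collagen gene met this, against 0.567% of all genes. The nearest was Col14a1, close to the 75th percentile in the tumors of each line, against the 49.2nd, 48.2nd and 50.7th in the cultures. Col3a1 moved to the 88.5th, 87.4th and 88.2nd in the tumors, against the 66.2nd, 63.9th and 67.0th in the cultures.

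Low in both, under the 50th percentile throughout, were Col4a3, Col8a2, Col9a1, Col19a1 and Col28a1, which is 5 genes, against 40.2% of all genes. The other 34 were intermediate, and none was high in 1 culture and low in another. These percentiles give the place of a probe signal in its array, not an amount of RNA. Whether the line differences of culture return in tumors could not be shown for collagens, since no collagen gene both spanned 1 log2 unit among the 3 cultures and was called between tumor lines. Of all genes, 264 did, and in 189 of them (71.6%) the line highest in culture was highest in tumors.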

How the data were processed

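The authors deposited a table of 27 arrays with 1 log2 value for every probe set. The submitters' processing notes name RMA, Affymetrix Expression Console and GCOS without versions or order, and the material was, per the labels' protocols, 100 ng of Trizol-extracted total RNA. Detection calls and the genome build behind the probes were not given in the sources used here, and the number of arrays limits the precision. Every value column was matched to a sample (0 left over).

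Of 34760 probe sets, 21640 list 1 gene and were used, 1321 list several and 11799 none. Each of 19937 genes was represented by its probe set with the highest mean over the arrays. Comparisons used limma (version 3.58.1, under R 4.3.3; lmFit and eBayes, 2-sided, Benjamini-Hochberg over all genes, called at an adjusted p under 0.05), a fit tested on simulated data. Tables and figures were made with Python 3.11.15. Intervals are 95% intervals of the moderated fit.

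Any collagen gene could be named, with values in full for up to 12 called members per comparison, and up to 4 called members of the assembly and marker lists. Members and lists were chosen with earlier results of these data known. For 3 listed genes of the assembly list and 1 keratinocyte marker no probe set with 1 gene was found, and they were not analysed here. Alternatives were other summaries of probe sets, normalizations, filters and thresholds, subsets of lines, blocks, and leaving out each sample in turn. Replicate numbers in the titles did not pair samples: deviations of samples with the same number correlated above 0.1 in 0 of 2 pairs among cells and in 3 of 30 among tissues. Sequences are from RefSeq tables of build GRCm38.p6, in which 35 of the 44 genes had an entry.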

Additional observations from a re-analysis of the deposited data

Results flagged for a closer look

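In 12 of the 88 sets of a collagen gene and a p53 group, 1 line lay outside Dixon's 95% limit for its group. The nominal rate is about 1 in 20, but the 88 sets come from the same 10 lines and are not independent. The share of all genes flagged by this rule was not counted. The limit sets the gap to the nearest line against the range of the group, so a small gap can be flagged. Line 331 lay below the other 3 WT lines in Col6a4 (6.15, nearest line 6.67), Col9a2 (7.81, nearest 8.17) and Col9a3 (7.35, nearest 8.02). It also did so in Col13a1 (7.07, nearest 7.38) and Col26a1 (7.54, nearest 7.79). Over all genes, line 331 was the lowest of the lines in 22.7%. Line 116 lay above the other mutant lines in Col4a1 (8.77, nearest 8.09), Col5a1 (8.73, nearest 8.32) and Col7a1 (8.10, nearest 7.97). Line 28 lay above the other mutant lines in Col6a3 (9.83, nearest 8.02) and Col27a1 (7.95, nearest 7.77), and line 3 in Col23a1 (7.84, nearest 7.67). Line 120 lay above the other WT lines in Col28a1 (6.72, nearest 6.50).

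The tumors of line 123 all lay above their own line in culture in Col6a1 and those of line 59 all below, with mean differences that are 0.98 log2 units apart. This difference was not tested. The F test over tumor lines called Col6a4, whose line means spanned 1.18, and Col4a6, whose line means spanned 0.84, line 59 being the highest in both.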

How the results depend on the processing

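For the lines against NSC, 7 collagen genes were called higher, and 5 to 9 under the other probe summaries, scalings, filters and subsets of lines. Leaving out single samples gave 3 to 8, and the 3 came without either NSC sample. For the tumors against SubQ, 9 were called higher (8 to 9 with 1 sample left out) and 25 lower (24 to 25), but 15 lower with only genes above the median level and 4 lower with an added 2-fold threshold. In both of these cases fewer genes could pass. Quantile normalization gave 6 higher and 30 lower and turned Col6a2 to -0.58 (adjusted p = 0.041), and the cause was not tested. The 0 calls by p53 genotype stayed 0 throughout. Between tumor lines 2 genes were called, and 2 to 5 with 1 tumor left out (5 without tumor 3 of line 31). With the replicate block, 10 genes were called higher in the lines, 9 higher and 24 lower in the tumors and 2 between tumor lines, although the numbers do not pair the samples.

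In the untested comparison of tumors with culture, the deposited values gave 0 genes above and 41 below in all 9 tumors, since the 2 sets of arrays differ in their medians. Leaving out single tumors gave 11 to 13 above and 8 to 10 below, and leaving out the culture of a line, and so its tumors, 11 to 16 above and 9 to 10 below. With percentile limits of 65 and 40, 9 genes were high in both and 2 low in both. Partner pairs numbered 7, 4 to 8 with 1 line left out (4 without line 59, 95, 119 or 331), and 3 with the 6 mutant lines alone, a smaller sample. Line 331 was the lowest line in 28 collagen genes, and in 23 by quantile normalization, an alternative chosen after seeing the data.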
